A study of Schizosaccharomyces pombe with 15 samples.

Results

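Subtelomeric Scr1 peaks are the places near the ends of chromosomes I and II of the fission yeast Schizosaccharomyces pombe at which chromatin carrying the transcription factor Scr1 was enriched over input DNA. A peak was a member when its summit, the base of highest enrichment, lay within 100 kb of an end of chromosome I (5579133 bp) or chromosome II (4539804 bp) of the laboratory reference genome. This rule took 363 of the 11406 peaks in 6 lists, and the 4 windows made up 3.95% of both chromosomes. The lists came from chromatin immunoprecipitation and sequencing of Scr1 with a TAP tag at the end of its own gene, pulled down with an antibody to Protein A. Wilmar-P, an isolate used in industrial ethanol production, carried h90 scr1::TAP-KanMX6 and was moved from rich YES medium with 3% glucose to molasses medium or to fresh YES with 3% glucose. The laboratory strain, whose strain label is 972h- Scr1-TAP while its genotype label gives h+ with ade6-m216, leu1-32 and ura4-d18 beside scr1::TAP-KanMX6, was moved to molasses medium in the same way. Each of these 3 groups had 2 replicates and 1 input, and no list of an untagged strain or of the laboratory strain in glucose was analysed here.

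Subtelomeres are the stretches next to the telomere repeats. In fission yeast they hold heterochromatin, the telomere-linked helicase genes tlh1 and tlh2, and genes for transporters and cell surface proteins that are switched on in particular media, and their blocks are repeated between chromosome ends. Scr1 is a zinc finger protein of the Mig1 family that represses genes for the use of other carbon sources while glucose is plentiful, and its relatives bind short GC-rich sites.

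The sequences behind the results that follow are shown first. They are the windows of 201 bp around the Wilmar-P molasses summit of the strongest region at each end, the windows of the named Wilmar-P regions that held a Mig1-type motif, and the window of the laboratory peak between gal10 and gal1. All are the forward strand of the reference genome ASM294v3, whose 3 chromosomes have the lengths of the build the authors used. Capitals mark a Mig1-type motif (NNGGGG with CC, CT, GC or GT as its first bases), a CRE core (ATGACG) or a CCAAT box, each on either strand. Of all windows of this length in the outer 100 kb, 5.48% held a Mig1-type motif, 3.72% a CRE core and 37.9% a CCAAT box. Matches are letters in the reference and were not tested as binding sites.
ght3, chromosome I left end, chrI:81997-82197: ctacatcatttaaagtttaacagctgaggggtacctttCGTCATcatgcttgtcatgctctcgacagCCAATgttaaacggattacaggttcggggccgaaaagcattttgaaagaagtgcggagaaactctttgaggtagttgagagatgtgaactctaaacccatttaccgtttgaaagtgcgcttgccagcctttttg
yhb1, chromosome I right end, chrI:5517555-5517755: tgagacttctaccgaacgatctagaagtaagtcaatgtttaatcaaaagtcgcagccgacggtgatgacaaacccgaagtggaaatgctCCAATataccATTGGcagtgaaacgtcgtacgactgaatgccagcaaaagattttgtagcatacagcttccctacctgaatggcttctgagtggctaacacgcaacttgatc
pseudogene SPBPB21E7.08, chromosome II left end, chrII:72414-72614: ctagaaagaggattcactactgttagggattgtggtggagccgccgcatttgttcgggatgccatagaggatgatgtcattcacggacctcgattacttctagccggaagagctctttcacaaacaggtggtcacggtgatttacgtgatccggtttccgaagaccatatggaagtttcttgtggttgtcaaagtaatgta
pho84, chromosome II right end, chrII:4442945-4443145: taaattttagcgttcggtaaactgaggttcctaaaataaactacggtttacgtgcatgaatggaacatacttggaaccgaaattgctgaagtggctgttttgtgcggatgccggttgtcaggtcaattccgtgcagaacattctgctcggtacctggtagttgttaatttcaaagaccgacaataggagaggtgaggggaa
ght7, chromosome II left end, chrII:40605-40805: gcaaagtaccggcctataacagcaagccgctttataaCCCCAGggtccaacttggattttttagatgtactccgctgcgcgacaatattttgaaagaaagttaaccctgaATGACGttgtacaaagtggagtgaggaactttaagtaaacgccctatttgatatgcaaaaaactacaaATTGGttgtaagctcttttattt
aes1, chromosome II left end, chrII:70292-70492: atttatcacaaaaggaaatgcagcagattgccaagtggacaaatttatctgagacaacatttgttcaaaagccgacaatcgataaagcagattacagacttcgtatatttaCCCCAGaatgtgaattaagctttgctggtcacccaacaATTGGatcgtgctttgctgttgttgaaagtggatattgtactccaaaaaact
gal10 and gal1, chromosome II right end, chrII:4487586-4487786: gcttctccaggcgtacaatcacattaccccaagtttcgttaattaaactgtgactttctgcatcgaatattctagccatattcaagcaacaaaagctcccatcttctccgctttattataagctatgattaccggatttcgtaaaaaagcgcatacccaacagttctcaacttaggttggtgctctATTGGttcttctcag
The ght3 window held a CRE core 62 bp before the summit and a CCAAT box, and the yhb1 window held a pair of CCAAT boxes in opposite directions, with the later one across the summit. The pho84 and SPBPB21E7.08 windows held none of the searched letters. Only the ght7 window among those shown had all 3 motifs, and the gal10 and gal1 window had a CCAAT box alone.

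Wilmar-P in molasses had few but strong peaks at the ends, and the laboratory strain in molasses had many weak ones. The rest of chromosomes I and II had the same contrast. Median fold enrichment there was 3.74 and 2.83 in Wilmar-P molasses cells and 1.75 and 1.79 in laboratory cells. The number of members was 46 and 54 in replicates 1 and 2 of Wilmar-P molasses cells, 10 and 7 in Wilmar-P glucose cells, and 121 and 125 in laboratory cells in molasses. The numbers of the 3 groups did not overlap. The lists differed in length over chromosomes I, II and III in the same order, with 961 and 1073 peaks for Wilmar-P molasses cells, 386 and 228 for Wilmar-P glucose cells, and 4239 and 4479 for laboratory cells. The lists give no read depth, so its part in these numbers was not tested. The study's methods add a correction for reproducibility across replicates, a step not seen in these lists. With its workflow the study counted more Scr1 binding sites in molasses in Wilmar-P than in the laboratory strain, the opposite order to these list lengths.

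**Figure D1:**
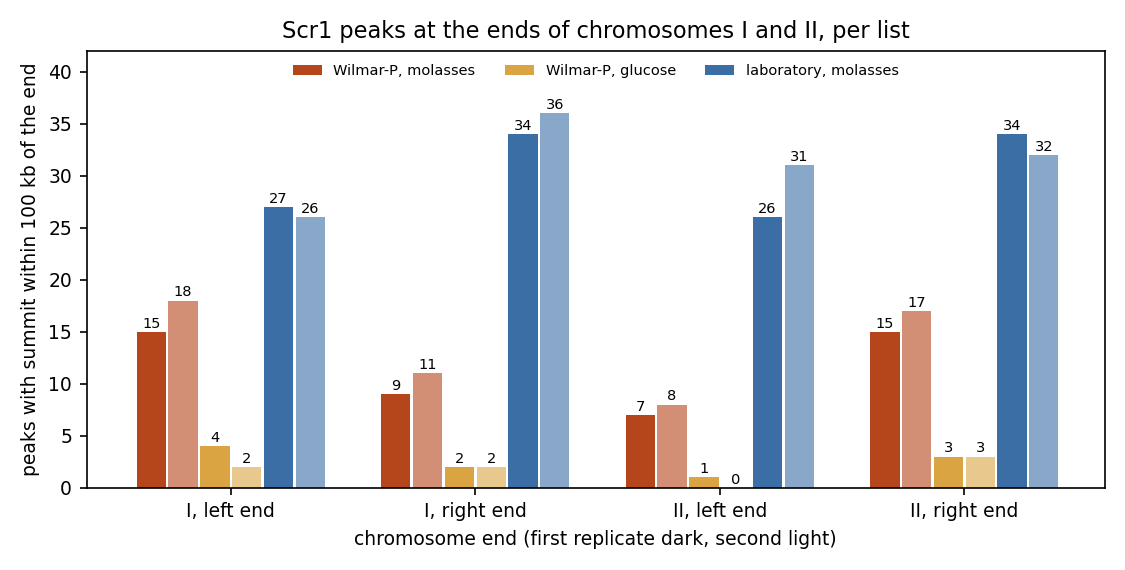
Number of peaks with a summit within 100 kb of each chromosome end, one bar per list, with Wilmar-P in molasses at the left of each set, Wilmar-P in glucose in the middle and laboratory cells in molasses at the right. At the left end of chromosome II the bars of Wilmar-P in molasses reached 7 and 8, against 26 and 31 in laboratory cells, and replicate 2 of Wilmar-P in glucose had no peak.

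Between the strains in molasses, Wilmar-P had fewer members at every end. At the left end of chromosome I it had 15 and 18 peaks, against 27 and 26 in laboratory cells. At the right end of chromosome I the numbers were 9 and 11 in Wilmar-P and 34 and 36 in laboratory cells. At the left end of chromosome II they were 7 and 8 in Wilmar-P and 26 and 31 in laboratory cells, and at its right end 15 and 17 in Wilmar-P and 34 and 32 in laboratory cells. Over the 4 ends the log2 ratio of Wilmar-P to laboratory numbers, with 0.5 added to each, was -1.29, and it ranged between -1.43 and -1.16 over the 4 pairs of lists. In an exact permutation test of 2 lists against 2, two-sided, p was 0.333, which is the smallest this design allows. The 2 lists of a group come from independent biological replicates, and each p-value measures only the spread between lists. The direction depended on how weak a peak was counted: with a fold enrichment of at least 2.5 the ratio was 1.24, since 35 and 28 Wilmar-P members but only 14 and 12 laboratory members remained. With each list cut to its 228 strongest peaks by p-value the ratio was -0.61, and Wilmar-P then had 3 and 3 members at the right end of chromosome I, against 2 and 2 in laboratory cells. Fold enrichment here is the height of a peak over the local input background, as the peak caller MACS2 gave it.

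Between media, Wilmar-P had more members in molasses than in glucose at every end, with a log2 ratio of 2.5 (2.15 to 2.86 over the pairs of lists, exact permutation p = 0.333, two-sided). The glucose lists held 4 and 2 peaks at the left end of chromosome I, 2 and 2 at its right end, 1 and 0 at the left end of chromosome II, and 3 and 3 at its right end. With each list cut to its 228 strongest peaks the log2 ratio was 0.71, and at the left end of chromosome I the molasses lists then had 2 and 2 members, against 3 and 2 in the glucose lists. Of all 17 glucose members, 15 lay more than 50 kb from the end. The members took 6.28% and 6.88% of the peaks on chromosomes I and II in the Wilmar-P molasses lists, against 3.55% and 4.02% in the Wilmar-P glucose lists and 3.78% and 3.65% in the laboratory lists.

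Merged where they shared at least 1 bp, all peaks of the 6 lists formed 5333 regions on chromosomes I, II and III, and 152 of them held a member. Of these 152, 38 (25.0%) had a peak in both Wilmar-P molasses lists, against 15.7% of all regions. Both Wilmar-P glucose lists held 5 (3.29%), against 3.49% of all regions, and both laboratory lists held 103 (67.8%), against 64.7%. Both lists of Wilmar-P in molasses and both of laboratory cells held 12 member regions (7.89%), against 7.16% of all regions. Regions in both Wilmar-P molasses lists and in no laboratory list numbered 24 (15.8%), against 7.82% of all regions. Regions in both laboratory lists and in no Wilmar-P molasses list numbered 84 (55.3%), against 54.8% of all regions, so the share of laboratory regions without a Wilmar-P molasses peak at the ends lay near that of the whole genome. Both lists of all 3 groups held 4 member regions, against 2.96% of all regions, and these lay upstream of ght3, yhb1, pho84 and pho1. Without replicate 1 of Wilmar-P in molasses, the regions shared with both laboratory lists numbered 19 in place of 12. With summits required to lie within 200 bp of each other, they numbered 9.

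Replicates agreed closely in molasses. Of the Wilmar-P molasses members of replicate 1, 45 of 46 overlapped a peak of replicate 2, and 41 of 54 the other way round. In glucose the counts were 5 of 10 and 5 of 7. In laboratory cells they were 113 of 121 and 111 of 125. Over the 38 shared Wilmar-P molasses regions, fold enrichment was higher in replicate 1 by a median of 0.23 on the log2 scale (SD 0.20), and the summits lay a median of 11.5 bp apart.

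The left end of chromosome I held the strongest member of all. It lay at 81657 to 82334 on chromosome I, with its summit 839 bp upstream of the start of ght3 (SPAC1F8.01, 82936 to 84786), which encodes a gluconate transporter of the hexose transporter family. Fold enrichment was 41.6 and 32.1 in Wilmar-P molasses cells, 14.0 and 11.5 in Wilmar-P glucose cells, and 4.02 and 3.40 in laboratory cells in molasses. The groups did not overlap, and the log2 difference was 1.52 between molasses and glucose in Wilmar-P and 3.30 between Wilmar-P and laboratory cells. Over shared regions in the rest of chromosomes I and II, the medians of these differences were 1.54 and 1.19. Inside the coding sequence of ght3 the laboratory lists had another peak, with 2.06 and 2.01, where the Wilmar-P lists had none.

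Inward of ght3 lie shu1 and str3, both known for the uptake of haem or iron, and 4 regions there had peaks in both Wilmar-P molasses lists. The summits lay 627 and 1222 bp upstream of the start of shu1 (SPAC1F8.02C), with fold enrichments of 5.10 and 4.21 and of 9.29 and 7.42, and neither region had a peak in glucose or in laboratory cells. Upstream of str3 (SPAC1F8.03C) the Wilmar-P molasses summits lay 613 and 601 bp from the start, with 10.8 and 7.86. The highest peak of this region in Wilmar-P glucose cells had 4.74 at 608 bp in replicate 1. In replicate 2 it had 2.79 and lay elsewhere, at 124 bp. Replicate 1 of the laboratory strain had 1.38 with its summit inside the gene, and its replicate 2 had no peak. The region 1463 bp upstream of str3 had 6.17 and 5.28 in Wilmar-P molasses cells and no peak in any other list. Of the 11 iron genes listed, shu1 and str3 alone lie in the windows.

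Of the 4 regions that both strains shared at this end in molasses, 1 was higher in laboratory cells. Near the overlapping starts of dak2, a dihydroxyacetone kinase gene, and SPAC977.17, a membrane channel gene of the MIP family, fold enrichment was 3.27 and 3.35 in Wilmar-P molasses cells, 3.51 in replicate 1 of Wilmar-P in glucose, and 5.42 in each laboratory replicate. The log2 difference between Wilmar-P and laboratory cells in molasses was -0.71. The study reports copy number variation at the dak2 locus in Wilmar-P, and its part in these values was not tested. A laboratory region near ftm1 without a Wilmar-P peak reached 2.04 and 2.05; its summit lay in SPAC212.01C and had 4 near-identical copies in the reference. Between 21277 and 57643, a stretch of 36366 bp, neither Wilmar-P molasses list had a summit, while the laboratory lists had 9 and 11. By length it ranked 79th among the 1519 stretches of both chromosomes without a Wilmar-P molasses summit.

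The right end of chromosome I had its highest region at 5517414 to 5519185. The Wilmar-P summit lay 296 bp upstream of yhb1 (SPAC869.02C), the gene of a nitric oxide dioxygenase, in the non-coding RNA SPNCRNA.4492. Fold enrichment was 30.7 and 26.7 in Wilmar-P molasses cells, 2.67 and 2.36 in Wilmar-P glucose cells, and 7.71 and 6.28 in laboratory cells. The log2 difference between molasses and glucose, 3.51, was above that at ght3, and laboratory cells had here their highest subtelomeric value. Another region lay 517 bp upstream of SPAC186.03, annotated as an L-asparaginase gene, over the non-coding RNA prl104. It had 16.5 and 11.4 in Wilmar-P molasses cells, 4.59 in replicate 2 of Wilmar-P in glucose and 1.72 in replicate 2 of laboratory cells. At the summit 148 bp upstream of SPAC922.04, an uncharacterised gene, fold enrichment was 14.0 and 10.2 in Wilmar-P molasses cells and 4.15 and 3.31 in laboratory cells. Neither Wilmar-P glucose list had a peak at this summit. The glucose peak of the merged region, of 2.93 in replicate 1, had its summit at 5480196, inside the gene. Replicate 2 of Wilmar-P in molasses and both laboratory lists also had a separate, weaker peak inside the gene. The upstream summit sat at the edge of the window, 99.4 kb from the end.

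The highest regions of this end with peaks in Wilmar-P molasses cells alone were weaker. Near gdt1, over a long terminal repeat, the values were 4.60 and 3.48, and in the region inside SPNCRNA.4465 next to SPAC922.04 they were 4.13 and 3.52. The highest regions of the laboratory strain alone were near atd2, an aldehyde dehydrogenase gene, with 2.1 and 2.26, and inside SPAC186.03, with 2.01 and 2.28 and 1 near-identical copy elsewhere.

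The left end of chromosome II had 6 regions in both Wilmar-P molasses lists, and 5 of them lay together between 69978 and 78226, a stretch of 8249 bp. The highest, whose sequence is shown above, had its summit in the pseudogene SPBPB21E7.08, with 17.1 and 14.8 in Wilmar-P molasses cells, 2.66 in replicate 1 of Wilmar-P in glucose and 5.27 and 4.54 in laboratory cells. That glucose peak was the only one of this end. Inside the coding sequence of aes1 (SPBPB21E7.07), annotated as a gene of the phenazine biosynthesis family, the values were 6.96 and 5.77 in Wilmar-P molasses cells, and no other list had a peak. Upstream of SPBPB21E7.09, like SPAC186.03 annotated as an L-asparaginase gene, a region at 1270 bp had 4.92 and 4.68 in Wilmar-P molasses cells alone. The highest laboratory regions without a Wilmar-P peak were near SPBPB21E7.11, with 2.90 and 2.36, and near cmt2, a catechol O-methyltransferase gene, with 2.34 and 1.94.

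Farther out on this arm, the region 562 bp upstream of ght7 (SPBC1348.14C, 38514 to 40143), a hexose transporter gene, had 4.53 and 3.11 in Wilmar-P molasses cells and no peak in the other groups. The laboratory lists had instead a weak peak inside ght7, with 1.5 and 1.61. From the end of the chromosome to this summit, over 40704 bp, no Wilmar-P molasses list had a summit, while the laboratory lists had 11 and 14 with a highest fold enrichment of 2.18. It was the 58th longest of 1519 stretches of both chromosomes without a summit in either Wilmar-P molasses list. The 54th longest, of 42542 bp, lay on the inner side, from 78006 to 120548, and ran past the 100 kb limit. It had 10 and 11 summits in laboratory cells, some of which can lie outside the window. The reference has a gap of 100 undetermined bases at 80202 to 80301 within that stretch.

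The right end of chromosome II had its strongest peaks at the phosphate genes near the inner edge of the window. Pho84 is a phosphate transporter and Pho1 a secreted acid phosphatase, and both genes are known to be repressed in phosphate-rich medium by transcription of a non-coding RNA that runs into them. The summit 1056 bp upstream of pho84 (SPBC8E4.01C) lay in the non-coding RNA prt2, with fold enrichment of 20.8 and 17.4 in Wilmar-P molasses cells, 7.73 and 7.16 in Wilmar-P glucose cells, and 7.26 and 5.61 in laboratory cells. The summit 384 bp upstream of pho1 (SPBP4G3.02) lay in nc-pho1, with 14.3 and 17.3 in Wilmar-P molasses cells, 6.63 and 9.54 in Wilmar-P glucose cells, and 6.70 and 5.72 in laboratory cells. At both genes Wilmar-P in molasses lay above the other groups, while the values of Wilmar-P in glucose and of laboratory cells overlapped. The log2 difference to laboratory cells was 1.58 at pho84 and 1.34 at pho1, against a median of 1.19 over shared regions in the rest of chromosomes I and II. To Wilmar-P in glucose it was 1.36 and 0.98, against a median of 1.54 in the rest.

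Outward of pho1, Wilmar-P peaks were few over a long stretch. From 4449258 to 4522413, which is 73155 bp, no summit was shared by both Wilmar-P molasses lists. Replicate 2 alone had 2 summits there, of 1.71 and 2.39, and replicate 1 had none. The laboratory lists had 23 and 22 summits in this stretch, and 22 protein-coding genes lay within it. Of the regions there, 18 were held by both laboratory lists and no Wilmar-P molasses list, and the region near fub2 was held by both laboratory lists (1.40 and 1.67) and by replicate 2 of Wilmar-P in molasses (1.71). Among the 1342 stretches of both chromosomes between shared Wilmar-P molasses summits it was the 20th longest, so 19 stretches elsewhere were longer. Neither Wilmar-P glucose list had a summit between 4449258 and 4522413.

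The galactose genes gal7, gal10 and gal1 lie in this stretch, at 4482234 to 4490271. No Wilmar-P list had a summit over them in either medium, against 7 and 6 in the laboratory lists. The strongest laboratory peak lay between the starts of gal10 (UDP-glucose epimerase) and gal1 (galactokinase), 151 bp from the one and 612 bp from the other, with 5.49 and 5.66. It ranked 72 and 60 by p-value among all peaks of those lists on chromosomes I, II and III, and it was the highest laboratory region of the 4 ends without a Wilmar-P peak. Near gal7 replicate 1 of the laboratory strain alone had a peak, of 1.66. From genome sequencing, the study found no read coverage over all or most of gal1, gal7 and gal10 in Wilmar-P and reports them as absent. Wilmar-P reads of the lists had been aligned to the laboratory reference, and the lists themselves hold no read coverage. The study also reports other regions of the laboratory genome without Wilmar-P coverage, most of them in the subtelomeres of chromosome II. Their positions were not set beside the peaks here. For other stretches without peaks, DNA absent from the strain and DNA present but not bound cannot be told apart from these lists.

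The outermost bases of this end held more Wilmar-P molasses regions than laboratory regions. Beyond tlh2, from 4532900 to the chromosome end, lie 6905 bp without a protein-coding gene, and 6 regions there had peaks in both Wilmar-P molasses lists, with fold enrichments of 2.21 to 4.28 in replicate 1 and 1.92 to 3.64 in replicate 2. None of these 6 had a laboratory peak, and they were 6 of the 7 regions of this end held by both Wilmar-P molasses lists and no laboratory list. The highest lay 6482 bp from the end (4.28 and 3.64) and the outermost 787 bp from it (4.21 and 3.45). Replicate 1 of Wilmar-P in glucose had a peak in 1 of them, of 2.19. Laboratory cells had 1 region there, at 4535505, with 1.46 and 1.52 and no Wilmar-P peak.

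**Figure D2:**
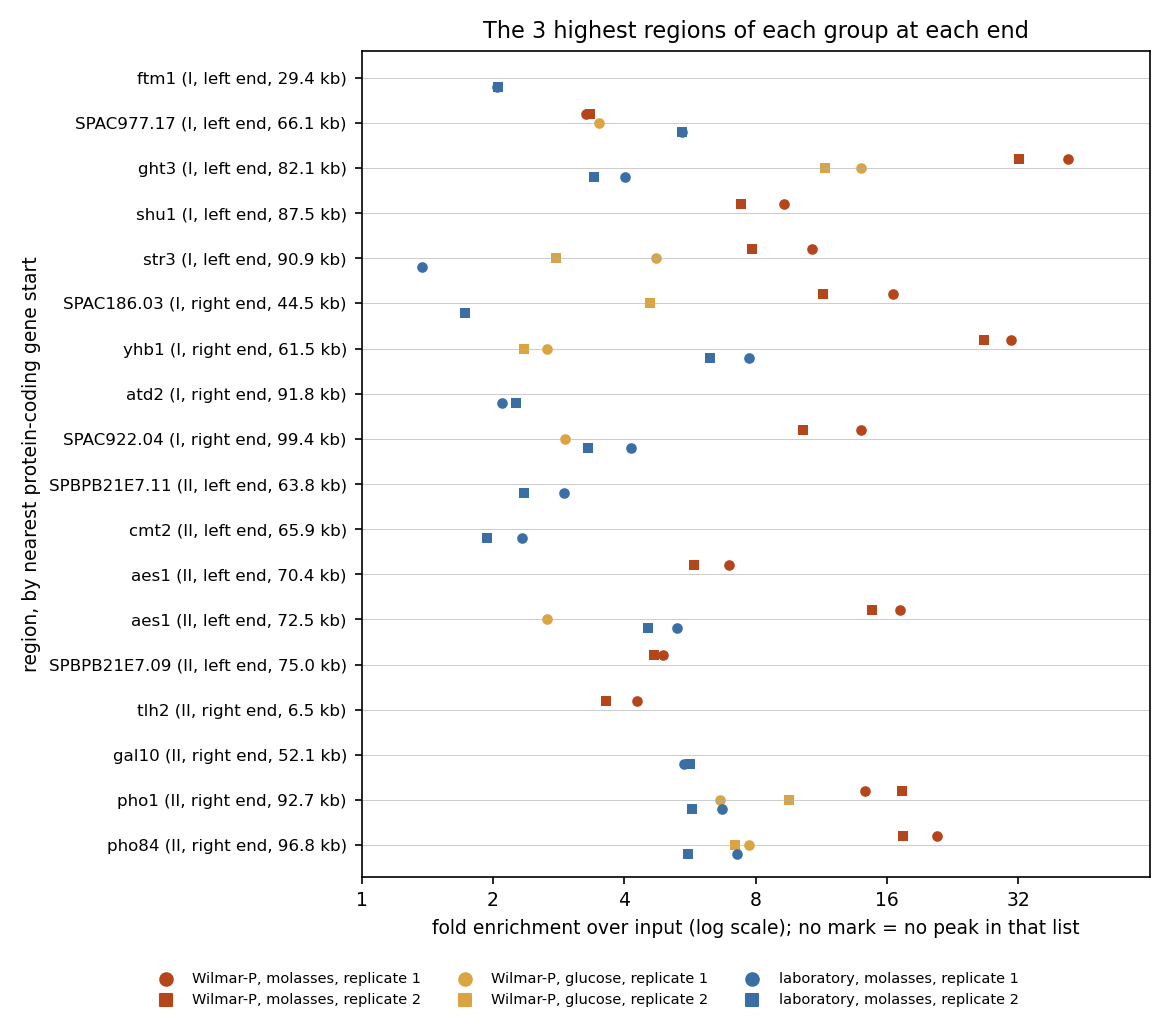
Fold enrichment over input, on a log scale, in each list for the regions that were among the 3 highest of a group at an end, named by the nearest protein-coding gene start with the distance from the end. Within each row Wilmar-P in molasses is drawn above Wilmar-P in glucose and laboratory cells, circles are replicate 1 and squares replicate 2, and a missing mark means that the list has no peak. Wilmar-P in molasses lay at the right in all rows where it had a peak except at SPAC977.17, where laboratory cells reached 5.42.

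The telomere-linked helicase genes tlh1 and tlh2 carried many weak peaks. Over tlh1 (I, 1 to 5662) there were 4 and 5 summits in Wilmar-P molasses cells, none in Wilmar-P glucose cells, and 2 and 1 in laboratory cells. Over tlh2 (II, 4526885 to 4532899) there were 1 and 5 in Wilmar-P molasses cells, none in Wilmar-P glucose cells, and 5 and 4 in laboratory cells. The highest fold enrichment at these genes was 1.97 in Wilmar-P and 1.80 in laboratory cells. The laboratory peaks were wide, covering 5273 and 6220 bp at tlh1, against 1132 and 3629 bp in Wilmar-P molasses cells. At tlh1 all 9 Wilmar-P summits and all 3 laboratory summits had a near-identical copy elsewhere in the reference.

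Copies were common among the members. A summit was counted as having a copy where another place in the reference matched at least 75% of the 201 bp around it at 95% identity or more. This held for 125 of the 363 members: 21.7% and 31.5% in Wilmar-P molasses cells, none in Wilmar-P glucose cells and 39.7% and 40.0% in laboratory cells. In the rest of chromosomes I and II the shares were 4.96% and 5.06% in Wilmar-P molasses cells, 5.88% and 0.599% in Wilmar-P glucose cells and 1.89% and 1.97% in laboratory cells. Members with a copy were the weaker ones: their median fold enrichment in Wilmar-P molasses cells was 2.23 and 1.69, against 4.25 and 3.35 without a copy. None of the regions at ght3, shu1, str3, yhb1, aes1, pho84, pho1 or between gal10 and gal1 had a copy at the summit used. How the authors treated reads that match several places is not given in the sources used here, and the part of the copies in these values was not tested.

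Within the windows, Wilmar-P molasses peaks were higher in the inner part. Their median fold enrichment was 2.91 and 2.28 at 0 to 50 kb from the end and 5.17 and 3.73 at 50 to 100 kb, given as a description with no test. In laboratory cells it was 1.63 and 1.72 at 0 to 50 kb and 1.83 and 1.88 at 50 to 100 kb. The outermost laboratory members lay 420 to 4300 bp from their ends. The outermost Wilmar-P molasses members lay 228 to 2309 bp from the end, except at the left end of chromosome II, where they lay 40704 and 40710 bp from it. At the limit of 100 kb, the last peaks inside had fold enrichments of 1.93 to 20.8 in Wilmar-P molasses cells and 1.32 to 7.26 in laboratory cells, and the first peaks outside had 1.97 to 25.0 in Wilmar-P molasses cells and 1.53 to 4.04 in laboratory cells. Strong peaks thus lay on both sides of the limit.

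**Figure D3:**
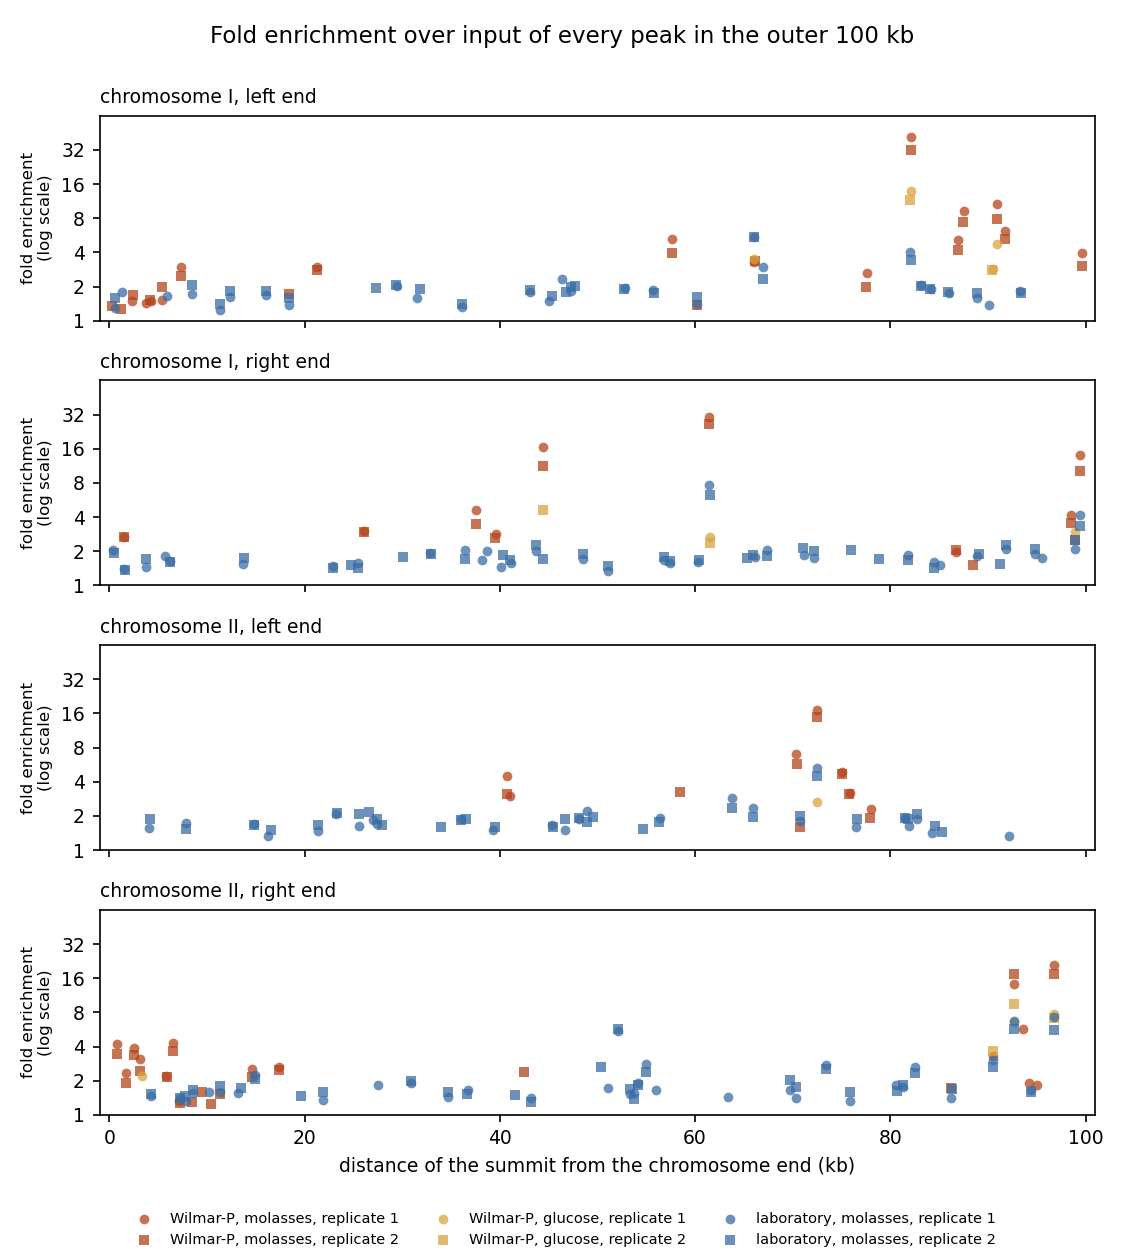
Fold enrichment over input, on a log scale, of each of the 363 member peaks against the distance of its summit from the chromosome end in kb, one panel per end. Colours are the 3 groups, circles replicate 1 and squares replicate 2. Wilmar-P molasses peaks reached 41.6 near 82 kb from the left end of chromosome I, no Wilmar-P peak lay within 40.7 kb of the left end of chromosome II, and the laboratory peaks stayed below 8 at all ends.

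Over the 12 regions that both strains shared in molasses, fold enrichment was higher in Wilmar-P in 10 and in laboratory cells in 2. The median log2 difference was 1.14 (SD 1.12), against 1.19 (SD 1.06) over 267 shared regions in the rest of chromosomes I and II. Merged regions can join summits that lie apart. In the region over tlh1 they lay at 5357 and 5372 in Wilmar-P and at 1275 and 541 in laboratory cells. Over the 5 regions that Wilmar-P shared between media the median log2 difference of molasses to glucose was 1.36, with molasses higher in all 5, against 1.54 over 132 regions in the rest.

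The outer windows were then set beside the rest of chromosomes I and II in 4 measures, and the ends of chromosome II beside those of chromosome I. None of these 5 comparisons passed 0.05 after adjustment. The 6 lists are 2 replicates of each of 3 groups, and lists of a group share strain, medium and input. They are thus not 6 independent units, and the p-values over lists can be too small. Peak density was 11.5 and 13.5 per 100 kb in the windows and 7.06 and 7.52 in the rest for Wilmar-P molasses cells, 2.5 and 1.75 in the windows and 2.80 and 1.72 in the rest for Wilmar-P glucose cells, and 30.2 and 31.2 in the windows and 31.6 and 33.9 in the rest for laboratory cells. The windows were thus denser in both Wilmar-P molasses lists, by ratios of 1.63 and 1.79, and slightly less dense in both laboratory lists, by ratios of 0.956 and 0.921. Over the 6 lists the mean log2 ratio was 0.24 (SD 0.44), with 3 lists above 0, and an exact sign-flip permutation test over lists, two-sided, gave p = 0.375 (adjusted over 5 tests by Benjamini-Hochberg, 0.375).

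The share of summits in coding sequence was lower at the ends in 5 of 6 lists. In the windows the share was 21.7% and 37.0% in Wilmar-P molasses cells, 20% and 0% in Wilmar-P glucose cells and 73.6% and 73.6% in laboratory cells. In the rest it was 26.7% and 34.1% in Wilmar-P molasses cells, 38.6% and 7.19% in Wilmar-P glucose cells and 92.5% and 93.3% in laboratory cells. Coding sequence made up 32.8% of the windows and 59.2% of the rest. The share of 0% rests on 7 peaks. The mean difference was -11.1 percentage points (SD 9.42, exact sign-flip permutation p = 0.0625, adjusted p = 0.0781), and it was -0.91 with a fold enrichment of at least 4 and -2.90 with lists of equal length. Of the Wilmar-P molasses summits in the windows, 21 and 20 (45.7% and 37.0%) lay in an annotated non-coding RNA outside coding sequence. Of the laboratory summits in the windows, 19 and 20 did (15.7% and 16%). Most laboratory summits lay in coding sequence, in the windows as in the rest. The share in non-coding RNA was not counted for the rest, so these values do not set the windows apart from it.

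Median fold enrichment was 3.28 and 2.65 in the windows and 3.74 and 2.83 in the rest for Wilmar-P molasses cells, 3.22 and 4.59 in the windows and 3.57 and 5.37 in the rest for Wilmar-P glucose cells, and 1.71 and 1.80 in the windows and 1.75 and 1.79 in the rest for laboratory cells. The mean difference of the median log2 values was -0.12 (SD 0.09), lower in 5 of 6 lists (exact sign-flip permutation p = 0.0625, adjusted p = 0.0781). It turned to 0.021 with peaks at a −log10 q of at least 5 and to 0.041 with a fold enrichment of at least 4.

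The share of summits with a Mig1-type motif was lower in the windows than in the rest in all 6 lists, but the difference did not pass 0.05 after adjustment. Within 100 bp of the summit, 4 of 46 and 4 of 54 members had one in Wilmar-P molasses cells (8.70% and 7.41%, against 16.8% and 16.4% in the rest), none of 10 and none of 7 in Wilmar-P glucose cells (against 28.7% and 32.3% in the rest), and 8 of 121 and 8 of 125 in laboratory cells (6.61% and 6.40%, against 7.28% and 7.37% in the rest). All windows of this length held the motif at 5.48% in the outer 100 kb and 5.39% in the rest. The mean difference was -13.3 percentage points (SD 13.8, exact sign-flip permutation p = 0.0312, the smallest that 6 lists allow), and the adjusted p over the 5 tests was 0.0781. The glucose lists, with the fewest members, had the widest differences.

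The ends of chromosome II had slightly fewer members than those of chromosome I in 5 of 6 lists. The members numbered 22 and 25 on chromosome II and 24 and 29 on chromosome I in Wilmar-P molasses cells, 4 and 3 on chromosome II and 6 and 4 on chromosome I in Wilmar-P glucose cells, and 60 and 63 on chromosome II and 61 and 62 on chromosome I in laboratory cells. The mean log2 ratio was -0.20 (SD 0.21, exact sign-flip permutation p = 0.0625, adjusted p = 0.0781). Most regions that the study found without coverage in Wilmar-P lie near the ends of chromosome II. The part of this missing DNA in these numbers was not tested.

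**Figure D4:**
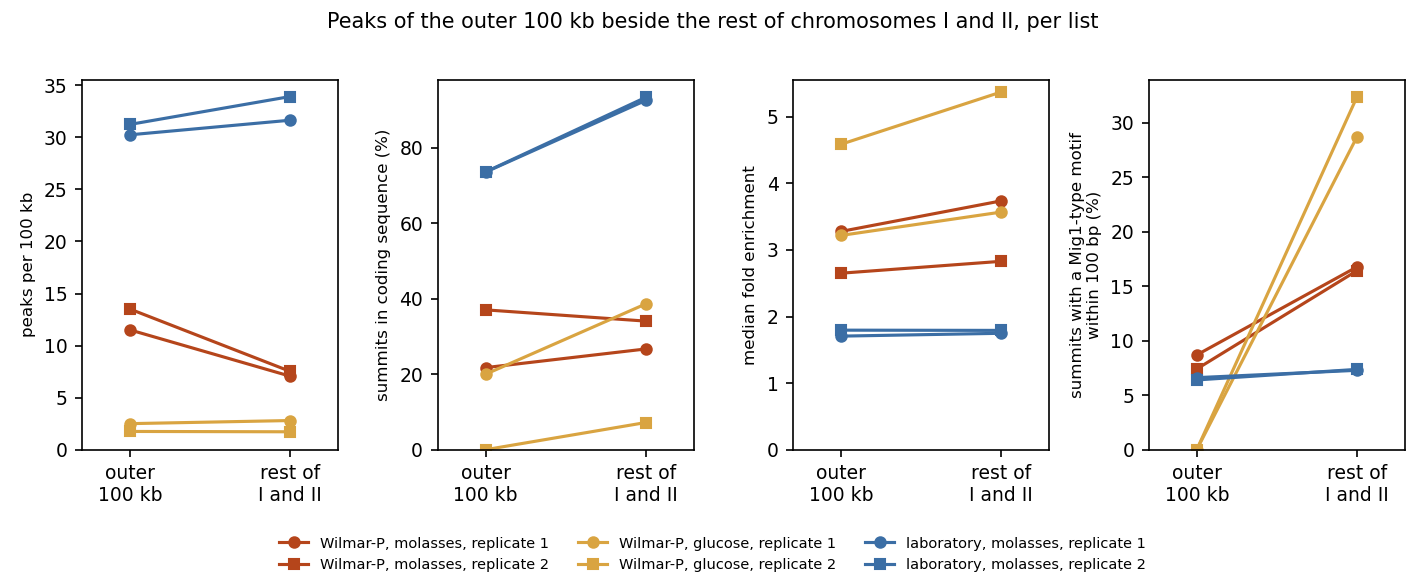
For each of the 6 lists, 4 measures in the outer 100 kb (left point) and in the rest of chromosomes I and II (right point): peaks per 100 kb, percent of summits in coding sequence, median fold enrichment and percent of summits with a Mig1-type motif within 100 bp. Density in the Wilmar-P molasses lists was 11.5 and 13.5 in the windows and 7.06 and 7.52 in the rest, while the motif shares of all 6 lists were lower in the windows.

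Protein-coding genes of the windows were counted as near a peak where both lists of a group had a summit within 1000 bp of the gene start. Of 123 genes, 22 were near a peak in Wilmar-P molasses cells (17.9%, against 12.8% of all 5113 genes), 4 in Wilmar-P glucose cells (3.25%, against 3.58%) and 69 in laboratory cells (56.1%, against 35.4%). Transporter genes were those whose annotated product names a transporter, permease or exporter. Of 17 such genes, 4 were near a peak in Wilmar-P molasses cells, 1 in Wilmar-P glucose cells and 6 in laboratory cells. The 4 in Wilmar-P were str3, ght7 and the divergent pair cat1 and put4, amino acid transporter genes that share a peak of 1.96 and 2.04. The list leaves out ght3, annotated as a symporter, which had a peak in all 6 lists. It counts pho84 as not near a peak, since the strong summit there lay 1056 bp upstream, beyond the limit of 1000 bp. Of 10 oxidoreductase genes, none was near a peak in both lists of Wilmar-P in either medium and 7 were in laboratory cells, with fold enrichments between 1.39 and 2.09. Of 4 cell surface glycoprotein genes, Wilmar-P in molasses had peaks only at pfl8 (3.99 and 3.05, 144 and 164 bp upstream), and laboratory cells had them at the other 3, inside the genes. Of the 3 galactose genes, none was near a peak in Wilmar-P and gal1 and gal10 were in laboratory cells, through the same peak.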

How the data were processed

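Scr1 ChIP-seq peaks were analysed from 6 deposited lists, 2 replicates for each of 3 groups. Per the study's methods and the submitters' processing notes, the authors trimmed reads (cutadapt 1.9.1), aligned them (Bowtie2 2.3.1) and called peaks with MACS2 2.1.1 against 1 input per condition, so lists of a group share their input. The study's methods also name an irreproducible discovery rate correction across replicates. The deposited lists are per replicate, and that correction is not seen in them. For each peak the authors deposited the fold enrichment at the summit over local background and the −log10 p and −log10 q at the summit. The lowest −log10 q was 2.00 to 2.43, so weaker sites were not analysed here. The lists hold no read depth, so intervals from depth could not be given. Wilmar-P peaks are on coordinates of the laboratory reference (ASM294v2). How reads with several matches were placed is not given in the sources used here. RNA polymerase II samples were not analysed here.

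Members, gene lists and tests were chosen with earlier results of these data known. Summits were placed on the RefSeq annotation of ASM294v3. Peaks of the 6 lists were merged where they shared 1 bp. Named regions were, per end and group, the 3 highest held by both lists and the 2 highest held by no other group. Regions within 1000 bp of the start of a galactose, hexose transporter, iron or telomere-linked helicase gene were also named. So were the outermost and boundary peaks. Transporter, oxidoreductase and cell surface glycoprotein genes were counted as lists, and only some of them are named. Other regions were named after their values were seen. Copies were found with blastn 2.17.0. Comparisons of the windows with the rest used an exact sign-flip permutation test over 6 lists (smallest p 0.0312), with Benjamini-Hochberg adjustment over 5 tests, and comparisons of groups an exact permutation test of 2 lists against 2. The code was tested on simulated lists. Alternatives were other windows, thresholds, list lengths, overlaps, motif widths and copy limits, an irreproducible discovery rate of 0.05, the replicate block and leaving out each list. Python 3.11.15, NumPy 2.4.6, pandas 2.3.3 and SciPy 1.17.1 were used.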

Additional observations from a re-analysis of the deposited data

Results flagged for a closer look

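The log2 ratio of peak density in the outer 100 kb to that in the rest was higher by 0.87 in Wilmar-P molasses cells than in laboratory molasses cells, in 4 of 4 pairs of lists, which is a difference of the same contrast between strains. The exact permutation test of 2 lists against 2, two-sided, gave p = 0.333, the smallest the design allows. The unplaced contig of the reference, which the comparisons above did not use, also carried peaks in all 6 lists, and no control list bears on them. Its strongest peak had a fold enrichment of 19.0 and 15.4 in Wilmar-P molasses cells, 3.36 and 3.53 in Wilmar-P glucose cells, and 5.14 and 3.25 in laboratory cells. The contig had 1 peak in each of the 4 Wilmar-P lists, against 7 and 9 in the laboratory lists.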

How the results depend on the processing

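Peak calling was done before deposit, and all alternatives start from the called peaks. The log2 ratio of Wilmar-P to laboratory numbers in molasses turned round with a fold enrichment of at least 2.5 (1.24) or 4 (1.16), and was -0.39 at an irreproducible discovery rate of at most 0.05, where the ratio of molasses to glucose in Wilmar-P was 3.22. In the outer 50 kb the log2 density ratio to the rest turned to -0.29, and that of chromosome II to chromosome I ends to 0.032. With lists of equal length, 228 peaks each, the comparison of the chromosomes gave 0.13, the ratio of Wilmar-P to laboratory numbers -0.61 and that of molasses to glucose 0.71, which was 4.08 in the outer 50 kb. The density ratio was 0.73 with lists of equal length, 0.59 and 0.50 with a fold enrichment of at least 2.5 and 4, and 0.39 in the outer 200 kb. The coding difference shrank to -2.90 percentage points with lists of equal length, -2.99 and -0.91 with a fold enrichment of at least 2.5 and 4, and -3.73 in the outer 200 kb. The motif difference was -29.9 points with lists of equal length, -24.4 and -26.6 with a fold enrichment of at least 2.5 and 4, -4.54 in the outer 200 kb and -8.50 within 50 bp of the summit. The difference in fold enrichment was -0.30 in the outer 50 kb and turned to 0.041 with a fold enrichment of at least 4 and to 0.021 with a −log10 q of at least 5. With a fold enrichment of at least 2.5, 7 regions were held by both lists of both strains in molasses and 2 by both laboratory lists and no Wilmar-P molasses list. The causes of these changes were not tested. Leaving out 1 list at a time, the regions shared by both strains numbered 12 to 19, the density ratio was 0.11 to 0.31, the coding difference -13.9 to -9.34 percentage points, the motif difference -15.8 to -9.48 points, and the ratio of Wilmar-P to laboratory numbers -1.41 to -1.18. With the replicate number as a block, the ratio of Wilmar-P to laboratory numbers was -1.29 and that of molasses to glucose 2.5 (exact permutation p = 0.5 each, the smallest that 2 pairs allow), and the pairing changed no call. No source says that equal numbers mark a shared culture.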

Other observations

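CRE cores within 100 bp of the summit were held by 10.9% and 9.26% of members in Wilmar-P molasses cells, 10% and 14.3% in Wilmar-P glucose cells and 1.65% and 1.60% in laboratory cells, against 3.72% of all windows of the outer 100 kb. In the rest of chromosomes I and II the shares were 13.4% and 12.7% in Wilmar-P molasses cells, 15.8% and 21.6% in Wilmar-P glucose cells, and 7.44% and 7.46% in laboratory cells. CCAAT boxes were held by 43.5% and 40.7% of members in Wilmar-P molasses cells, 40% and 28.6% in Wilmar-P glucose cells, and 47.9% and 43.2% in laboratory cells, against 37.9% of all windows. These shares are given as values, with no test.

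Some near-identical windows at different ends had a peak at both copies in the same list. There were 2 such pairs in replicate 1 and 5 in replicate 2 of Wilmar-P molasses cells, and the values within a pair differed by at most 0.24 on the log2 scale. In these lists 10 and 17 members had a copy, and several of them had no peak at it, such as the summit at 2310 on chromosome I in replicate 1. How reads with several matches were placed is not given, and its part in the near-equal values was not tested. In replicate 1 the pair at 7348 on chromosome I and 4525182 on chromosome II had 2.99 and 2.54, and that at 5577598 on chromosome I and 4522413 on chromosome II had 2.65 at both.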
